A study of Mus musculus with 2 samples.

Results

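Col10a1-high surface chondrocytes of the trace library were 1031 of the 9247 cells that passed the quality filter in that library, or 11.1% (exact 95% interval 10.5% to 11.8%), of 15780 such cells in both libraries. The filter kept barcodes with 500 or more detected genes and 10% or less of their unique molecular identifiers (UMIs, each standing for 1 captured RNA molecule) from mitochondrial genes. A filtered cell then had to hold 4 or more UMIs of Col10a1 and 2 or more of Acan. It had to hold under 10 UMIs of the heat shock genes Hspa1a, Hspa1b and Dnajb1 together. At most 2 of the 6 deeper-cartilage genes Matn3, Col9a1, Epyc, Cnmd, Prkg2 and Fxyd2 could be detected in it. The Col10a1 step left 1141 cells, the Acan step 1127, the heat shock step 1044 and the last step 1031, so Col10a1 set nearly the whole choice. These values chose the cells, and the levels of the rule's genes are given below only as a description.

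Live tdTomato+ cells without CD45, CD31 or Ter119 on their surface (DAPI-) had been sorted from knee joint cartilage of Procr-CreER;tdTomato mice. In the trace group, 3 mice received tamoxifen at 4 weeks of age and were sampled 4 weeks later. In the pulse group, 3 mice received tamoxifen at 4 weeks of age and were sampled 2 days later. All mice of both groups carried the same alleles and received tamoxifen. The Procr promoter drives CreER, so the red label marks cells that expressed Procr, which encodes a receptor for protein C, at the time of tamoxifen, and their descendants. Each group was 1 library of pooled mice and the barcodes do not name the mouse. No difference below could be tested across animals, and every interval covers counting error only.

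The trace library held 10423 barcodes and 40284041 UMIs, and the pulse library 6863 barcodes and 23306063 UMIs. In filtered cells, the ribosomal RNA-associated transcripts Gm42418, AY036118, Cmss1, Gphn, Camk1d and Lars2 together took 8.89% of trace UMIs and 0.961% of pulse UMIs. Xist stood at 376 CPM (a gene's UMIs over all UMIs of the cells, times 1000000) in Col10a1-high trace cells and at 0 UMIs in the pulse cells chosen by the same rule, while the Y-linked Ddx3y stood at 0.164 and 197 CPM. Time after tamoxifen, age, sex and library therefore cannot be told apart between the groups. The libraries shared 16 barcodes, of which 0 were Col10a1-high trace cells. Cell types that should lack cartilage genes give the background of each detection share: Prg4, a product of surface chondrocytes, had a UMI in 54.0% of 291 trace cells with 3 or more endothelial markers, at a median depth of 2874 UMIs.

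Type X collagen, the product of Col10a1, is a short-chain collagen best known from hypertrophic chondrocytes, the enlarged cells of the growth plate and of the calcified cartilage zone. There it is made together with genes of matrix breakdown and mineralization. Articular cartilage at the joint surface is made by flatter cells that secrete lubricin, encoded by Prg4, along with aggrecan (Acan) and other matrix proteins. Cytl1, Chil1 and Serpina3n encode a cytokine-like protein of cartilage, a chitinase-like glycoprotein and a serine protease inhibitor.

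3 sets of trace cells serve for comparison. The Col10a1-low surface cells met the same rule but held 0 to 3 UMIs of Col10a1 (3275 cells). The deeper-zone cells held 2 or more UMIs of Acan and 3 or more of the 6 deeper-cartilage genes, under the same heat shock limit (185 cells). The remaining filtered cells of the library numbered 8216. Col10a1-high cells were the deeper sequenced of the surface cells, with a median of 5319 UMIs against 4127 in Col10a1-low cells. Deeper-zone cells had a median of 6670 UMIs.

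Col10a1 ran over a wide range among the chosen cells, with 4 UMIs in the lowest cell, 22 in the median cell and 480 in the highest. Scaled to 10000 UMIs per cell, its lower quartile was 18.7, its median 46.1 and its upper quartile 107. Among all 4306 trace surface cells, 64.9% held no Col10a1 UMI, 7.22% held 1 and 3.95% held 2 or 3. The 66 cells just inside the limit, at 4 UMIs, and the 65 cells just outside it, at 3 UMIs, had close levels of Chil1 (968 and 975 CPM), Prg4 (36950 and 37624 CPM) and Acan (5762 and 5603 CPM). AW112010 stood at 456 CPM just inside and at 228 CPM just outside, and Mgp at 2261 and 4331 CPM. Fxyd3, Nebl and F13a1 also stood higher just inside, and Npy and Gadd45a lower, as over the whole sets described below. Serpina1b (291 and 430 CPM), Serpina3n (271 and 465 CPM) and Fmod (40.2 and 6.41 CPM) went against their whole-set ratios. The Fmod levels rest on 12 and 2 UMIs. Of the 1031 cells, 629 held none of the 6 deeper-cartilage genes, 351 held 1 and 51 held 2. The heat shock sum was 0 in 692 cells, and a further 80 cells met the rest of the rule but not the heat shock limit.

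**Figure D1:**
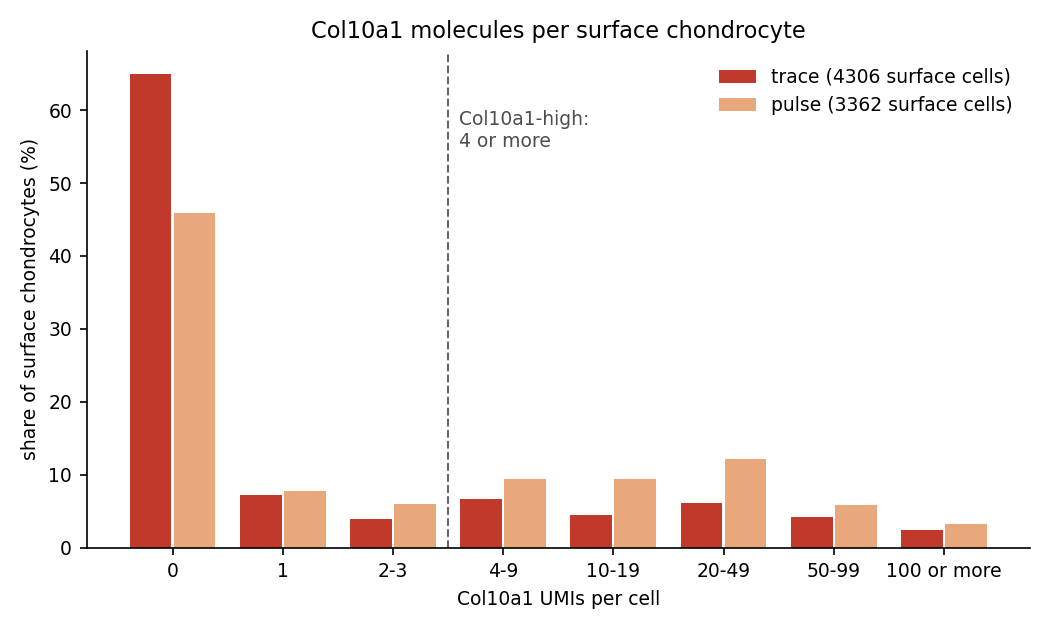
The bars give the share of surface chondrocytes (%) in each bin of Col10a1 UMIs per cell, for 4306 trace cells (left bar of each pair) and 3362 pulse cells (right bar). The dashed line marks the limit of 4 UMIs. No UMI was found in 64.9% of trace and 45.9% of pulse surface cells.

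The label's markers were met in part. Acan was in every cell by the rule and is therefore no check of the label, at 5724 CPM against 3130 CPM in Col10a1-low cells. Cytl1 had a UMI in 97.2% of Col10a1-high cells (96.0% to 98.1%) and 90.1% of Col10a1-low cells, against 35.1% of endothelial cells, and its level was 14130 CPM against 7674 CPM in Col10a1-low cells. Serpina3n had a UMI in 41.2% of Col10a1-high cells and 18.6% of Col10a1-low cells, and Chil1 in 39.0% and 11.1%. In the endothelial cells both were in 2.06% of cells. Chil1 was also in 14.7% of neutrophils, which in human store its protein. After each cell was thinned to 2000 UMIs, which left out 67 shallower Col10a1-high and 396 Col10a1-low cells, Chil1 remained in 30.7% of Col10a1-high cells and 9.07% of Col10a1-low cells, and Serpina3n in 25.7% and 13.4%. Of these 3 markers outside the rule, Chil1 alone was past 2-fold over Col10a1-low cells, and neither Chil1 nor Serpina3n was detected in most of the Col10a1-high cells.

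Prg4 separated the cells from the deeper zone and not from other surface cells. It was in 99.9% of them, with a median of 251 UMIs per 10000, against 179 in Col10a1-low cells and 1.77 in deeper-zone cells. The reporter transcript Tdtomato stood at 68.3 CPM in Col10a1-high cells and 66.9 CPM in Col10a1-low cells, and was detected in 25.5% and 21.5% of them, against 4.78% of 293 neutrophils at a median depth of 2388 UMIs. Procr itself was detected in 4.56% of Col10a1-high cells (3.37% to 6.02%), a share within the interval for the neutrophils (5.12%, 2.89% to 8.30%), and is read here as background.

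Of 15 listed hypertrophy genes besides Col10a1, 9 stood under 20 CPM in the Col10a1-high cells, and Spp1 was the one that differed by 2-fold from Col10a1-low cells among those measured. In all, 7 of the 15 reached 20 CPM in these cells or in Col10a1-low cells. Spp1, which encodes the mineral-binding glycoprotein osteopontin, passed a 2-fold difference upwards and 0 passed it downwards, with a median log2 ratio of -0.22 over the 7. Of 5793 genes measured in this comparison, 71 (1.23%) were 2-fold or more higher and 70 (1.21%) were 2-fold or more lower, and the median log2 ratio over all of them was -0.09. Spp1 stood at 1699 CPM in Col10a1-high cells and 771 CPM in Col10a1-low cells, and was found in 41.1% and 20.2% of them. In both groups the UMIs were unevenly spread, and 1 Col10a1-low cell held 19.7% of that group's Spp1 UMIs.

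Some hypertrophy genes were present and close to their Col10a1-low levels. Loxl4, a lysyl oxidase-like enzyme, stood at 168 against 168 CPM, the transcription factor gene Mef2c at 44.9 against 40.9 CPM, and Vegfa, which draws in blood vessels, at 303 against 446 CPM. Others were near 0. Ihh, the Indian hedgehog signal of prehypertrophic cells, and Phospho1, a phosphatase of matrix vesicles, had 0 UMIs in the 6107515 UMIs of the Col10a1-high cells, which allows up to 0.491 CPM of each. Panx3 had 1 UMI. Alpl, the alkaline phosphatase of mineralizing cells, stood at 3.60 CPM, Sp7 at 1.97 CPM and Runx2, a transcription factor that drives hypertrophy, at 11.0 CPM. In the deeper-zone cells these levels were 171 CPM for Alpl, 29.3 CPM for Sp7 and 332 CPM for Runx2. Mmp13, the collagenase of terminal hypertrophic cells, reached 35.2 CPM, but 89.8% of its UMIs lay in 1 cell and only 1.36% of the Col10a1-high cells held any. Ibsp, bone sialoprotein, reached 139 CPM with 72.6% of its UMIs in 10 cells.

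AW112010, Fxyd3 and Chil1 had the highest ratios over the Col10a1-low cells of the same library. AW112010, an interferon- and lipopolysaccharide-responsive transcript, was 7.0-fold higher (328 against 46.8 CPM, 95% interval 6.42 to 7.65), and 13.03-fold when the highest 1% of cells of each set were left out. It was in 37.7% of Col10a1-high cells and 6.29% of Col10a1-low cells, against 3.78% of endothelial cells. Fxyd3, a regulator of the sodium pump, was 5.66-fold higher at 103 against 18.2 CPM. Chil1 was 3.98-fold higher at 999.8 against 251 CPM. None of these genes was used by the rule, yet the same cells were compared, so the ratios describe the split on Col10a1 and do not test it.

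Among the 15 highest genes, Serpina1b, an antitrypsin gene, stood at 358 against 96.8 CPM, a ratio of 3.70 (3.46 to 3.96). Timp3, an inhibitor of metalloproteinases, stood at 1058 against 439 CPM, and F13a1, the transglutaminase chain of clotting factor XIII, at 349 against 106 CPM. Smoc2, a calcium-binding matricellular protein, differed in detection as well as level: it was in 96.7% of Col10a1-high cells and 53.5% of Col10a1-low cells, at 2140 against 744 CPM. Lox, the lysyl oxidase that crosslinks collagen, stood at 630 against 221 CPM and was in 72.6% of Col10a1-high cells and 34.0% of Col10a1-low cells. The endothelial cells held Smoc2 in 9.97% and Lox in 2.75%. Few other members of the lists that hold these genes passed 2-fold: 1 of 7 measured serpins was past 2-fold upwards, 1 of 4 lysyl oxidases and 1 of 5 SPARC family genes, with 0 downwards in each, and of 11 matrix proteases and TIMPs 1 was past it upwards and 2 downwards. Nebl, a nebulin-related actin-binding protein, Cryab, a small heat shock protein outside the rule, and Layn, a hyaluronan receptor, were 3.63-fold, 2.52-fold and 2.38-fold higher. Mia, a secreted cartilage protein, was 2.35-fold higher at 157 against 66.7 CPM.

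The chemokine and NF-kB response list had 2 of 12 measured genes past 2-fold upwards and 0 downwards, and its median log2 ratio was 0.67 against -0.09 over all genes. Listed genes under 20 CPM in both sets were not counted. Of these, Ccl2 (0.819 against 19.99 CPM) and Ccl7 (0.164 against 3.11 CPM) stood lower in Col10a1-high cells. Ptgs2 (19.5 against 7.16 CPM) and Il6 (8.19 against 3.11 CPM) stood higher. Cxcl2, a neutrophil-attracting chemokine, stood at 277 against 128 CPM, but 53.3% of its UMIs in Col10a1-high cells were in 10 cells. Icam1, an adhesion molecule, stood at 924 against 451 CPM. Sod2 was 1.70-fold and Nfkbiz 1.67-fold higher, short of the 2-fold mark. Tnip1, which restrains NF-kB signalling, was 2.30-fold higher and the membrane chemokine Cx3cl1 2.45-fold. Lcn2, an iron-scavenging protein of innate immunity that neutrophils also make, stood at 318 against 125 CPM and was in 33.7% of Col10a1-high cells. Other neutrophil genes were lower in Col10a1-high cells: S100a8 stood at 60.7 against 95.7 CPM, and Ngp, Camp and Retnlg were at or under 8.68 CPM. Nos2, the inducible nitric oxide synthase, was in 82.4% of Col10a1-high cells and 50.4% of Col10a1-low cells, at 2158 against 1128 CPM.

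Promoter sequences are shown for Col10a1, which defines the cells, and for 3 of the genes above that hold a match to an NF-kB-type motif. The windows run from 250 bases before to 50 bases after each gene's start and come from RefSeq annotation of GRCm38.p6. The motif searched was GGGANNNNCC on both strands, and matches are in capitals. Col10a1 at chr10:34389731-34390030 on the plus strand holds no match, Chil1 at chr1:134181906-134182205 on the plus strand holds 1, and AW112010 at chr19:11050517-11050816 on the minus strand holds 2. Tnip1 at chr11:54962891-54963190 on the minus strand holds 1 stretch that matches on both strands.
Col10a1: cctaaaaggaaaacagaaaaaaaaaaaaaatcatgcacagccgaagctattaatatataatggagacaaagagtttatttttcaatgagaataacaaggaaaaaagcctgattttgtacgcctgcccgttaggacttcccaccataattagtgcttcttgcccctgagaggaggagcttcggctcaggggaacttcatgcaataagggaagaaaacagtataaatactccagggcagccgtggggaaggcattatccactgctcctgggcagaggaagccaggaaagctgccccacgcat
Chil1: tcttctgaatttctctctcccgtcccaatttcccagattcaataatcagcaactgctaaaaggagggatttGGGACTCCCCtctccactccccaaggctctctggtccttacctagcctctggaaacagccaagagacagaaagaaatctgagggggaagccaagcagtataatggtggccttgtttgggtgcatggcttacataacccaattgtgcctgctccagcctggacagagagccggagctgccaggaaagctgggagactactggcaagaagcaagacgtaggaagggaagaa
AW112010: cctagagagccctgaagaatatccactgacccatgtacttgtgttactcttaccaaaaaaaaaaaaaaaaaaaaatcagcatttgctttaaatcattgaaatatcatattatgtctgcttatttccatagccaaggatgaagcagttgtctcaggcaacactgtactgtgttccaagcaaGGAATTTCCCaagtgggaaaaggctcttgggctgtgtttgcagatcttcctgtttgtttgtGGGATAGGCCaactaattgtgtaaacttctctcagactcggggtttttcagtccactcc
Tnip1: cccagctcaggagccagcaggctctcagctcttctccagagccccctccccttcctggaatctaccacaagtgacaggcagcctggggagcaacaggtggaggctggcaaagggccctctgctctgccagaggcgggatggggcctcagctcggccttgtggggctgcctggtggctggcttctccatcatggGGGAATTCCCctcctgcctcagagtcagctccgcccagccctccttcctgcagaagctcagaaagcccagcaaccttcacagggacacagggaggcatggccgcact
Of the 15 highest genes, 12 had a promoter in the table and 5 of these held the motif, namely Chil1, Fxyd3, Layn, Tnip1 and AW112010. Of the 15 lowest genes, 4 of 11 held it, and so did 20.5% of all 27025 promoters. A RUNX-type TGTGGT was in 2 of the 12 and 1 of the 11, against 16.9% of all promoters, and an AP-1-type TGANTCA in 1 of the 12 and 0 of the 11, against 7.93%. These matches describe letters in the windows and say nothing of binding.

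Mgp, Fmod and several fibrous collagens stood lower in Col10a1-high than in Col10a1-low cells. Mgp, matrix Gla protein, an inhibitor of cartilage calcification, stood at 3154 CPM in Col10a1-high cells against 11913 CPM in Col10a1-low cells, 3.78-fold lower. The median Col10a1-high cell had 2.08 Mgp UMIs per 10000, against 49.8 in the median Col10a1-low cell. Fmod, the collagen-binding proteoglycan fibromodulin, was 7.0-fold lower at 45.4 against 317 CPM, and was in 7.08% of Col10a1-high cells and 24.4% of Col10a1-low cells, against 3.78% of endothelial cells. Of 7 measured small leucine-rich proteoglycans, 3 passed 2-fold downwards (Bgn, Fmod and Ogn) and 0 upwards. Dcn, decorin, stood at 12679 against 9313 CPM.

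Of 11 measured fibrous tissue collagens and related genes, 5 were past 2-fold downwards and 0 upwards, with a median log2 ratio of -0.88. Col3a1 stood at 52.2 against 162 CPM, Col5a2 at 125 against 271 CPM and Col1a2 at 202 against 553 CPM. Col1a1 stood at 240 against 633 CPM, but its UMIs were concentrated in few cells: 10 cells held 91.4% of them in the Col10a1-high group. The osteoblast marker list summed to 275 CPM in Col10a1-high cells and 683 CPM in Col10a1-low cells, with 1 of 7 genes (Mepe) at 0. The tendon list summed to 96.3 and 436 CPM, with 3 of 6 genes (Tnmd, Scx and Kera) at 0. In Col10a1-high cells, Col1a1 gave most of the osteoblast sum (1465 UMIs). Fmod (277 UMIs) and Thbs4 (259 UMIs), the latter also a listed superficial-zone gene, gave most of the tendon sum. Without the 5% of cells with the highest Scrublet doublet scores, the ratio of Col1a1 was 0.33 and that of Col3a1 0.11, against 0.38 and 0.32 with all cells. The part of such cells or their RNA in these collagen differences was not tested. Gadd45a, a growth arrest gene, Igfbp5 and Thbs4 were 3.21-fold, 2.93-fold and 2.58-fold lower. Npy was 4.02-fold lower, and 10 cells held 83.1% of its UMIs in the Col10a1-high group.

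Surface and cartilage matrix genes went in both directions. Of 9 measured superficial-zone genes, Ecrg4, a secreted peptide precursor, was past 2-fold upwards at 14508 against 6458 CPM, and Thbs4 and Vit were past it downwards. The median log2 ratio of these 9 genes was -0.57, against -0.09 over all measured genes, so most of the list stood lower in Col10a1-high cells. Prg4 was 1.29-fold higher (30925 against 24023 CPM) and Clu, the chaperone clusterin, 0.65 of its Col10a1-low level. The transcription factors Creb5 and Erg stood at 335 against 443 CPM and at 201 against 298 CPM. Of 19 measured cartilage matrix genes, Snorc, Mia and Chadl were past 2-fold upwards and Cilp2 downwards, with a median log2 ratio of -0.28. Col2a1, the main collagen of cartilage, stood at 1799 against 3163 CPM. Sox9, the chondrocyte master regulator, stood at 1907 against 1246 CPM. Of 19 measured glycolysis and hypoxia genes none passed 2-fold in either direction, and the list's median log2 ratio was -0.37.

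**Figure D2:**
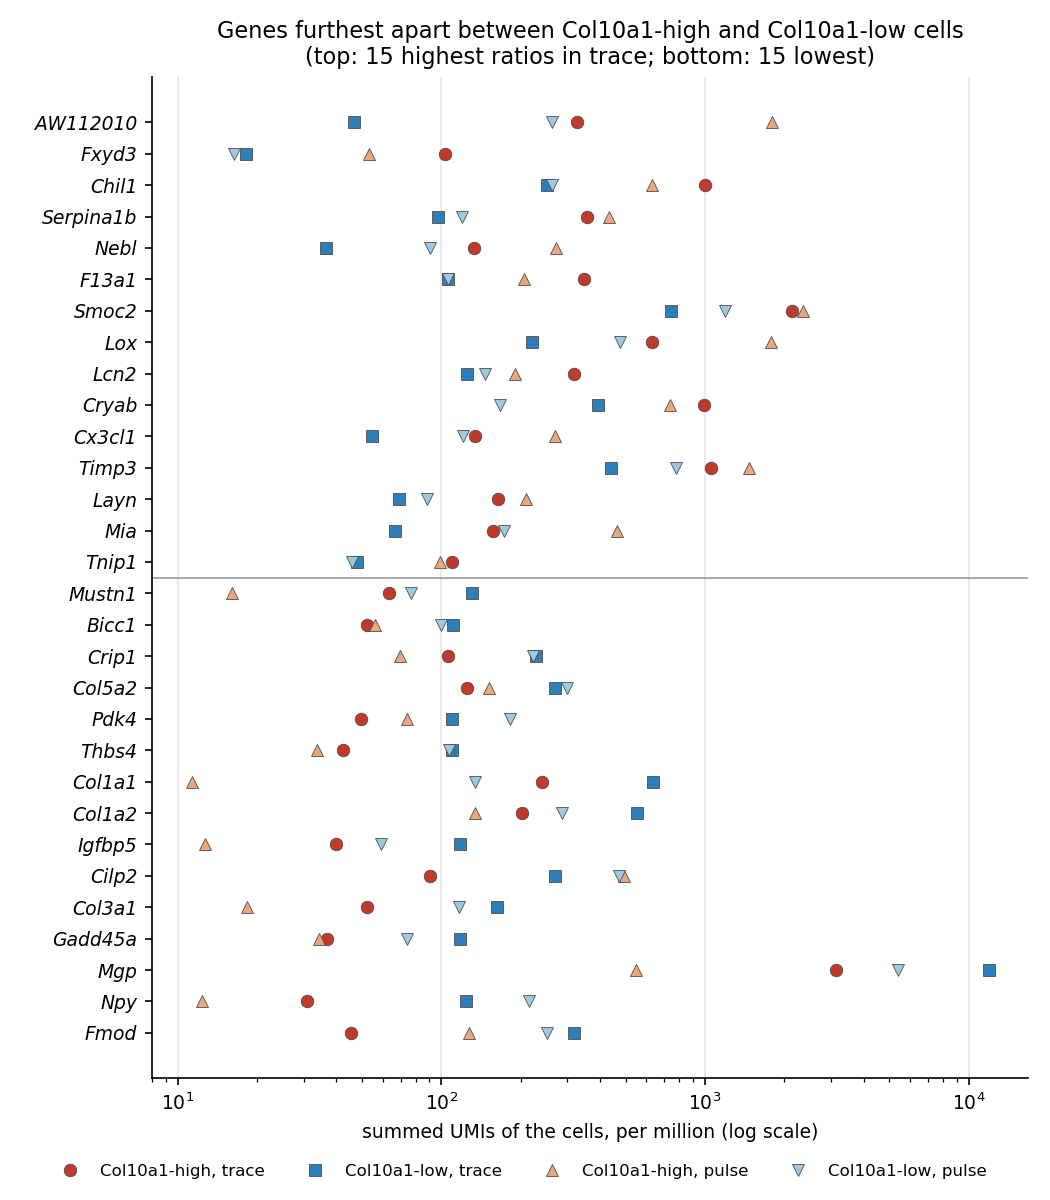
Each row is 1 gene and the horizontal axis gives the summed level in CPM on a log scale. Circles are Col10a1-high and squares Col10a1-low cells of the trace library, upward triangles the cells of the same rule and downward triangles Col10a1-low cells of the pulse library. The upper 15 genes have the highest and the lower 15 the lowest ratios in trace. AW112010 stood at 328 CPM in Col10a1-high trace cells and 46.8 CPM in Col10a1-low trace cells.

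Against the 8216 other filtered cells of the library, which hold connective tissue, blood and bone cells as well as cartilage, 183 of 6238 measured genes (2.93%) were 2-fold or more higher and 576 (9.23%) lower. AW112010 led again at 328 against 37.4 CPM, followed by Fxyd3 (7.03-fold), Chil1 (6.86-fold), Nebl (5.25-fold) and Smoc2 (5.04-fold). The lowest were genes of neutrophils, of the synovial lining, of bone and of mural cells: Ngp at 4.09 against 225 CPM, Clic5 at 7.20 against 218 CPM, Bglap at 4.42 against 105 CPM and Rgs5 at 11.0 against 214 CPM. Of 9 measured hypertrophy genes, Spp1 was past 2-fold upwards and Mmp13, Ibsp, Alpl, Runx2 and Pth1r downwards. Of 18 measured immediate early genes, 9 were past 2-fold downwards, with Fos, Jun and Egr1 among them, and 0 upwards. Against the Col10a1-low surface cells, which were held to the same heat shock limit, none of 17 measured immediate early genes passed 2-fold in either direction, with a median log2 ratio of -0.21. The endothelial marker list summed to 12.6 CPM in Col10a1-high cells against 157 CPM in the others, and the macrophage list to 5.57 against 72.0 CPM.

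The deeper-zone cells were chosen by cartilage genes and are set beside the Col10a1-high cells as a description. Between them, 570 of 6018 measured genes (9.47%) were 2-fold or more higher and 544 (9.04%) lower. Prg4 was 14.6-fold higher, at 30925 CPM in Col10a1-high cells against 2125 CPM in deeper-zone cells. Nos2 (24.2-fold), Hdac9, a class II histone deacetylase (19.2-fold), Plat, the tissue plasminogen activator (18.8-fold), and Slc7a2, an arginine transporter (15.5-fold), were among the highest. Of 9 superficial-zone genes, 8 were past 2-fold upwards and 0 downwards. All 7 measured complement and innate immunity genes were past 2-fold upwards, and so were 8 of 13 chemokine and NF-kB genes, with 1 downwards. Msmp had the highest ratio of all, 29.3, but 95.9% of its UMIs in the Col10a1-high group lay in 1 cell.

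Most measured hypertrophy and cartilage matrix genes were higher in the deeper-zone cells. Of 12 measured hypertrophy genes, 9 were past 2-fold downwards in the Col10a1-high cells and only Spp1 upwards, with a median log2 ratio of -3.77 against -0.02 over all genes. Alpl was 47.6-fold lower, Runx2 30.2-fold, and Gadd45g, a growth arrest gene outside that list, 68.0-fold lower at 24.4 against 1660 CPM. Of 20 measured cartilage matrix genes, 14 were past 2-fold downwards, and Col2a1 stood at 1799 against 12896 CPM. Col10a1 itself was detected in 17.3% of deeper-zone cells (12.1% to 23.5%), and 13 of the 185 (7.03%) held 4 or more UMIs. Of its UMIs there, summing to 707 CPM, 57.8% lay in 1 cell. Mgp stood at 3154 CPM in Col10a1-high cells and 9105 CPM in deeper-zone cells, whereas Fn1, fibronectin, was near equal at 24446 and 26539 CPM.

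Within the 1031 cells, the order by Col10a1 share of UMIs gave 4 bins of 257 or 258 cells, whose Col10a1 stood at 1101, 3103, 7129 and 19479 CPM from the lowest to the highest bin. Between the top and bottom bins, 60 of 5782 measured genes (1.04%) were 2-fold or more higher and 76 (1.31%) lower. F13a1 stood at 225, 277, 384 and 551 CPM and Serpina1b at 212, 324, 458 and 475 CPM from the lowest to the highest bin. Col9a2, a chain of type IX collagen, stood at 76.3, 122, 164 and 194 CPM in the same order. Mgp went the other way, at 4066, 3261, 3270 and 1704 CPM, as did Bgn at 378, 303, 300 and 164 CPM.

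Several other genes followed no such order. Chil1 stood at 1325, 1024, 682 and 901 CPM from the lowest to the highest bin and Serpina3n at 371, 329, 205 and 215 CPM, so the top bin held less of both than the bottom bin, although both were higher in Col10a1-high than in Col10a1-low cells. AW112010 stood at 286, 320, 468 and 234 CPM. Acan ranged from 5412 to 6026 CPM and Sox9 from 1750 to 2112 CPM. Prg4 was lower in the top than in the bottom bin, at 33597, 30313, 30758 and 28224 CPM from the lowest to the highest bin. Cytl1 was higher in the top than in the bottom bin, at 12112, 13208, 15856 and 15832 CPM. Between the top and bottom bins, all 4 measured haemoglobin genes were past 2-fold downwards. Median depth was 6062 UMIs in the lowest bin and 5083 UMIs in the highest.

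**Figure D3:**
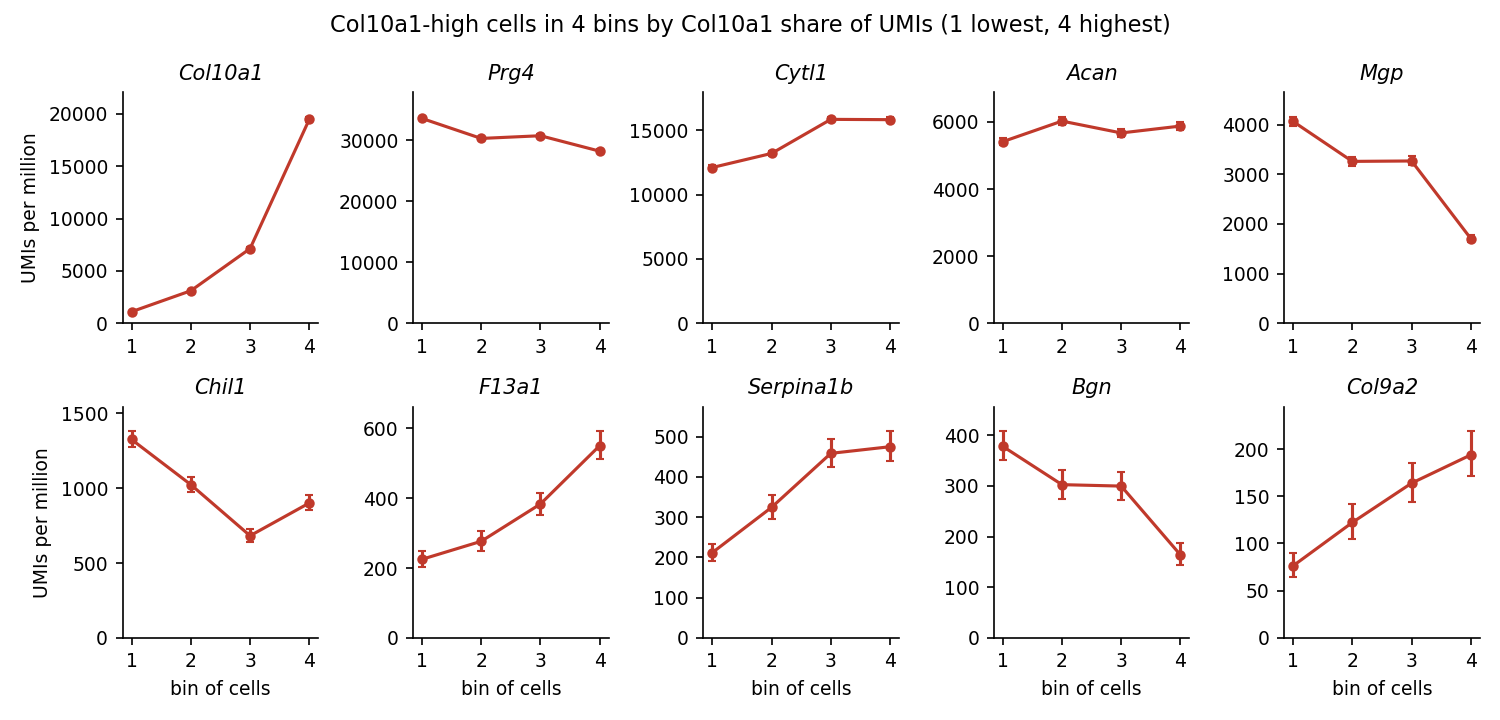
Each panel gives 1 gene's summed CPM in the 4 bins of the Col10a1-high cells, ordered by Col10a1 share of UMIs from 1 (lowest) to 4 (highest). Bars are exact Poisson 95% intervals of the counts. F13a1 stood at 225 CPM in the lowest and 551 CPM in the highest bin, and Mgp at 4066 and 1704 CPM.

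Leiden clustering of the 1031 cells alone, at resolution 0.5, gave 4 subgroups, described here by their leading genes among those detected in 20% or more of the subgroup. The same cells formed the subgroups, so the values describe them. Resolution 0.3 gave 2 groups and resolution 1 gave 9, and the number of subgroups was set by the resolution. Median depth was close, from 5291 to 5516.5 UMIs.

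Subgroup 1 held 394 cells (38.2%) and was led by C4b, a complement component (743 CPM against 195 CPM in the other Col10a1-high cells), and by Htra4, a secreted serine protease (564 against 163 CPM). The proteinases Tll1, Mmp3 and Adam9 were among its leads at 2.85-fold, 2.32-fold and 2.26-fold higher. Its Spp1 was 186 against 2656 CPM.

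Subgroup 2 held 334 cells (32.4%) and was led by Hmga2, a chromatin protein of growing cells (1120 against 149 CPM), and Plk2, a stress-induced kinase (205 against 27.5 CPM). Mgp stood there at 6218 against 1707 CPM and Mt1, a metallothionein, at 576 against 162 CPM. Chil1 was low at 138 against 1407 CPM, and Icam1 at 333 against 1204 CPM.

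Subgroup 3 held 189 cells (18.3%) and combined high Spp1 (6434 against 695 CPM, in 93.7% of its cells) with high Chil1 (3573 against 454 CPM) and AW112010 (865 against 214 CPM). Tnfrsf11b, the decoy receptor osteoprotegerin, stood at 3082 against 1372 CPM. Mgp was 0.13 and Sparc, osteonectin, 0.29 of the level in the other Col10a1-high cells.

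Subgroup 4 held 114 cells (11.1%) and was led by Col1a1 (1800 against 33.6 CPM), Col1a2 (1301 against 56.7 CPM), Ibsp (890 against 39.3 CPM) and Col3a1 (328 against 15.8 CPM). A few cells carried these sums: 22.8% of its cells held any Col1a1 UMI, and 10 cells held 97.5% of its Col1a1, 86.6% of its Col1a2, 88.0% of its Ibsp and 84.6% of its Col3a1 UMIs. Its AW112010 was 33.7 against 367 CPM and its Nos2 735 against 2347 CPM. The osteoblast marker list summed to 1971 CPM in it against 50.2 CPM in the other Col10a1-high cells, with 1 of 7 genes (Mepe) at 0 and 1284 UMIs of the sum from Col1a1, and the loose connective tissue list to 327 against 35.0 CPM, with 0 of 7 at 0. Of its cells, 27.2% were among the 5% of trace cells with the highest Scrublet doublet scores, against 2.69% to 3.55% of the other subgroups. The part of mixed droplets in this subgroup was not tested. Col10a1 stood at 4142 CPM in subgroup 4 and at 7100, 8801 and 6277 CPM in subgroups 1, 2 and 3.

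**Figure D4:**
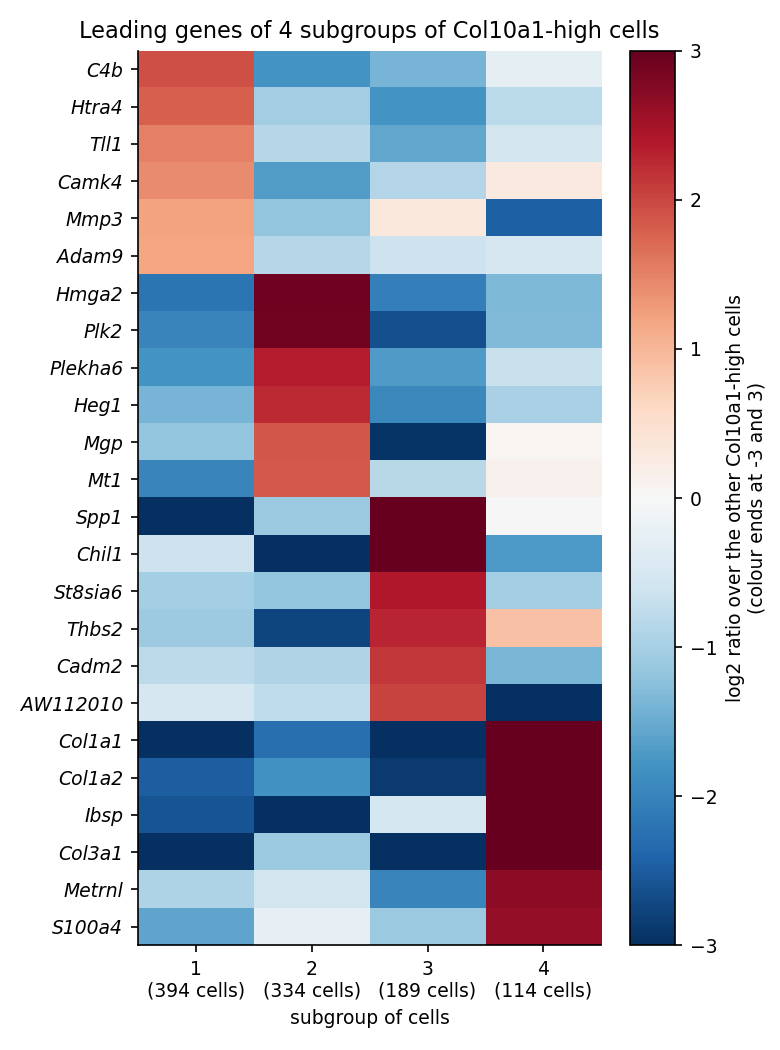
Rows are the 6 first leading genes of each of the 4 subgroups of Col10a1-high cells, columns are the subgroups with their cell numbers, and colour is the log2 ratio of summed CPM over the other Col10a1-high cells. Red blocks along the diagonal are the leads by choice. Spp1 and Chil1 share subgroup 3, and Mgp is high in subgroup 2.

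The pairing of Spp1 with other genes was also read in Col10a1-low and pulse cells, which had no part in the clustering. Cells with 3 or more Spp1 UMIs were set against cells with none. Chil1 stood at 2094 against 422 CPM among the Col10a1-high cells, at 1010 against 133 CPM among Col10a1-low trace cells and at 954 against 459 CPM among pulse cells of the same rule. AW112010 went with Spp1 in the same 3 sets, at 563 against 209, 166 against 24.8 and 3299 against 963 CPM. Cells with 3 or more Spp1 UMIs were also the deeper ones, with medians of 6124 against 4973 UMIs among Col10a1-high cells, 5151 against 3997.5 among Col10a1-low cells and 3717 against 3245 among pulse cells. Lcn2 kept no such order, at 1.57-fold and 1.58-fold higher in the trace sets and 0.84 in the pulse set. Mgp, which was low in subgroup 3, stood at 1.02, 0.97 and 1.26 of its level in cells without Spp1 in the 3 sets, and Prg4 at 0.85, 0.62 and 0.50.

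Genes of the other subgroups were read in the same way and the same 3 sets. Col1a2 and Htra4 were leading genes of subgroups 4 and 1. Cxcl2 was not a leading gene of subgroup 2, since 18.0% of its cells held a UMI, under the 20% limit. Cells with 3 or more Col1a2 UMIs had 158-fold, 157-fold and 35.9-fold the Col1a1 of cells with none, and 18.8-fold, 28.9-fold and 2.80-fold the Ibsp. They were 53, 415 and 66 cells against 789, 2034 and 988. Their median depths were 8791 against 4948, 5976 against 3604.5 and 4791 against 3126.5 UMIs. Cells with 3 or more Cxcl2 or Htra4 UMIs were also deeper than cells with none in all 3 sets. With Cxcl2, Hmga2 was 3.37-fold, 2.39-fold and 1.37-fold higher and Mgp 1.46-fold, 1.06-fold and 3.35-fold. With Htra4, C4b was 1.82-fold, 1.14-fold and 1.46-fold higher and Tll1 1.97-fold, 1.87-fold and 1.92-fold.

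The same rule applied to the pulse library found 1350 cells, 20.7% of its 6533 filtered cells. Within surface cells, 23.9% of 4306 trace cells (22.7% to 25.2%) and 40.2% of 3362 pulse cells (38.5% to 41.8%) held 4 or more Col10a1 UMIs. After thinning to 2000 UMIs the shares were 19.2% and 39.8%, so trace lay lower although its cells were the deeper ones. Thinning left out 463 trace and 658 pulse surface cells as too shallow, and the other limits of the rule were applied at full depth. The level of Col10a1 was 7156 CPM in Col10a1-high trace cells and 10148 CPM in Col10a1-high pulse cells.

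Between Col10a1-high trace and pulse cells, 191 of 6017 measured genes (3.17%) were 2-fold or more higher and 531 (8.82%) lower, with a median log2 ratio of -0.22. With that median set to no change, 313 genes were higher and 332 lower. Prg4 stood at 30925 CPM in trace and 7626 CPM in pulse, 4.06-fold higher, and Cytl1 at 14130 against 3605 CPM. Mgp stood at 3154 against 549 CPM and Serpina3n at 285 against 88.4 CPM. Loxl4 stood at 168 against 30.6 CPM, while Lox stood at 630 against 1773 CPM. Sparc was 14.5-fold lower, at 3857 against 55869 CPM, and its median was 19.1 UMIs per 10000 in trace cells against 466 in pulse cells.

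Further genes were lower in trace. AW112010 stood at 328 against 1793 CPM and was in 37.7% of trace and 65.0% of pulse cells of the rule. Egr1, an immediate early gene, stood at 45.0 against 266 CPM, Il15 at 17.8 against 100.1 CPM and Cilp2 at 90.4 against 491 CPM. All 8 transcripts of the ribosomal RNA-associated list, which adds Cdk8 and Jarid2 to those named above, were past 2-fold upwards. Cmss1 (10.4-fold), Lars2 (9.59-fold) and Gphn (5.54-fold) were among them. All 4 measured haemoglobin genes were past 2-fold upwards as well, and the erythroid list summed to 270 CPM in trace and 0.616 CPM in pulse cells of the rule, a gap larger than that of the ribosomal RNA-associated list (median log2 ratios 6.98 and 2.40). Within trace, the erythroid list stood at 270 CPM in Col10a1-high cells against 626 CPM in Col10a1-low cells, and 3 of its 4 measured genes were past 2-fold downwards. The part of red cell RNA in the comparisons was not tested. Outside the sex-linked and haemoglobin genes, Msmp (105-fold) and Col1a1 (21.3-fold) had the highest ratios among named genes at 100 CPM or more in either set, with 95.9% and 31.5% of their trace UMIs in 1 cell each. The Tdtomato transcript stood at 68.3 against 33.2 CPM. Between Col10a1-high and Col10a1-low cells of trace, Sparc differed by less, at 3857 and 4781 CPM, and Cmss1 at 8006 and 9441 CPM. AW112010, Mgp, Lox, Cilp2 and Col1a1 were past 2-fold there as well, but only Cilp2 in the same direction, lower in both comparisons. AW112010 and Lox were lower in trace than in pulse but higher in Col10a1-high than in Col10a1-low cells. Mgp and Col1a1 went the opposite ways.

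The contrast of Col10a1-high over Col10a1-low cells was also read inside the pulse library, which the choice of these trace cells did not use. There 93 of 6260 genes (1.49%) were 2-fold or more higher and 121 (1.93%) lower. The same rule split the cells in both libraries, so its own genes were left out of the overlap. Over the 5503 other genes measured in both libraries, 64 (1.16%) were past 2-fold upwards in trace, 66 (1.20%) in pulse and 38 in both, which is 59.4% of the trace genes and 57.6% of the pulse genes. Downwards, 54 (0.981%) were past it in trace, 85 (1.54%) in pulse and 35 in both, 64.8% and 41.2%.

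The ratios of the leading trace genes varied in how far they were repeated in pulse. AW112010 was 7.0-fold higher in trace and 6.80-fold in pulse, Serpina1b 3.70-fold and 3.62-fold, Nebl 3.63-fold and 3.01-fold, Layn 2.38-fold and 2.36-fold, and Tnip1 2.30-fold and 2.16-fold. The ratios were larger in pulse for Lox (2.85-fold and 3.74-fold) and Cryab (2.52-fold and 4.41-fold). They were smaller in pulse for Fxyd3 (5.66-fold and 3.23-fold), Chil1 (3.98-fold and 2.39-fold), F13a1 (3.31-fold and 1.93-fold), Smoc2 (2.88-fold and 1.96-fold) and Lcn2 (2.54-fold and 1.30-fold). Serpina3n was 1.84-fold higher in trace and at 0.93 of its Col10a1-low level in pulse. Fmod, the lowest gene in trace at 0.14 of its Col10a1-low level, stood at 0.504 in pulse, just short of the 2-fold mark. Mgp stood at 0.27 in trace and 0.10 in pulse, Col3a1 at 0.32 and 0.16, and Cilp2 at 0.33 and 1.04. Sparc was 0.81 in trace and 2.04 in pulse. These differences between the libraries were not tested.

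**Figure D5:**
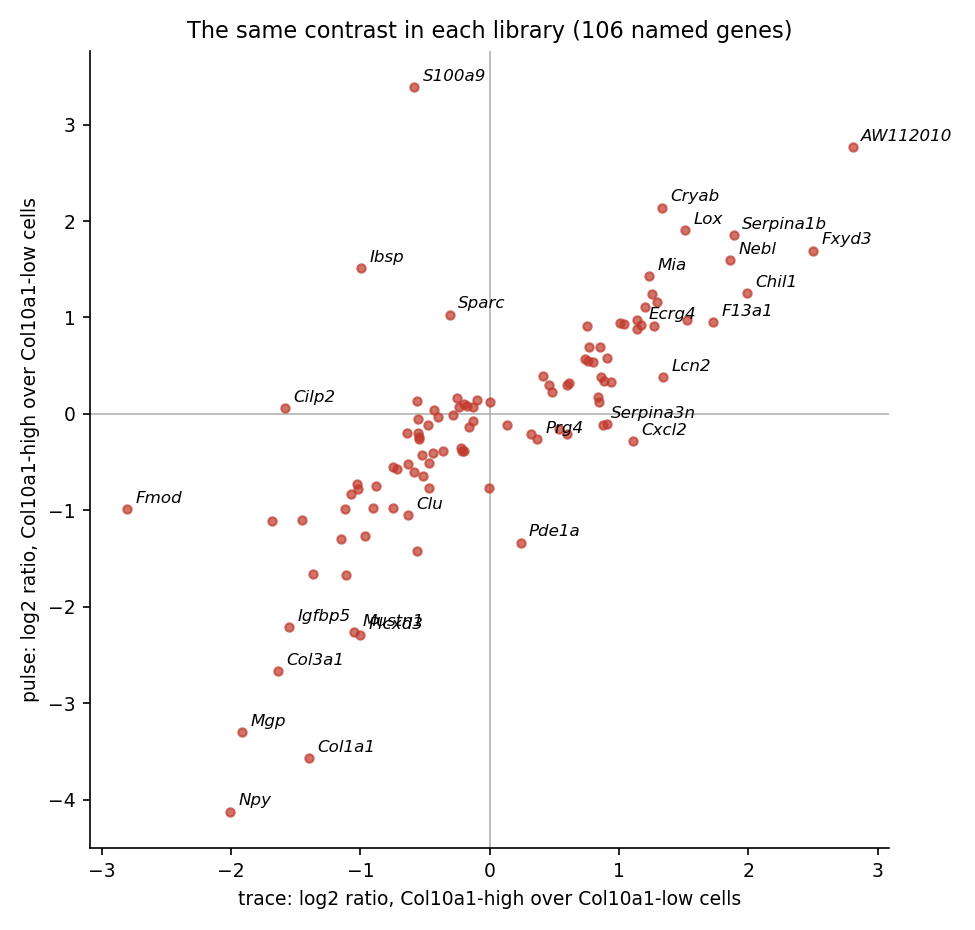
Each point is 1 of 106 named genes outside the rule, with the log2 ratio of Col10a1-high over Col10a1-low cells in trace on the horizontal axis and in pulse on the vertical axis. AW112010 lies at the upper right (7.0-fold in trace, 6.80-fold in pulse) and Mgp at the lower left, while Ibsp, S100a9 and Sparc lie at the upper left. Many of the genes were named for their trace ratio.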

How the data were processed

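Both groups were measured with droplet single-cell RNA-seq (10x 3' V2 kit, 1 library each), per the labels' protocols, which also speak of periosteum. What the authors deposited are raw counts of UMIs for every gene in every barcode. Cell Ranger is given as version 7.1.0 per the file headers and as 3.0.1, with mm10, per the submitters' processing notes, which also list STAR, HTSeq, Seurat and DESeq2 without a role. Whether intron reads or strand were used in counting is not given in the sources used here, so overlapping genes may share reads.

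Counts were summed over each set of cells and expressed as CPM. Ratios have exact conditional Poisson 95% intervals and shares have Clopper-Pearson intervals. With 1 library a group there is no p-value. A gene was measured in a comparison at 20 CPM or more in either set, and 2-fold ratios were counted. For a gene without UMIs, 3 UMIs in the whole set gave the upper limit. Endothelial cells held 3 or more of 7 endothelial markers and neutrophils 5 or more UMIs of S100a8 and of S100a9, and 2 and 5 of these cells were also Col10a1-high. Depth ranged from 703 to 25338 UMIs per Col10a1-high cell.

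Subgroups came from 1000 variable genes, 20 principal components and 20 neighbours (scanpy 1.11.5, leidenalg 0.10.2, igraph 0.11.9). Scrublet marked 0 of 9247 trace and 0 of 6533 pulse cells, so its call did not work. Doublets were kept, and cells in the top 5% of scores were left out as an alternative. The remaining software was matplotlib 3.10.9, pandas 2.3.3, scipy 1.17.1, anndata 0.12.19, numpy 2.4.6 and Python 3.11.15. The computation was tested on simulated data.

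Named were the rule's genes and given markers, the 15 highest and 15 lowest ratios over Col10a1-low cells at 100 CPM or more, the 8 highest and lowest of each other comparison, and up to 4 genes per list. Sex-linked, haemoglobin, immunoglobulin, ribosomal protein, mitochondrial and clone-named genes (Gm, Rik) were kept out of the highest and lowest. Subgroup genes and further list genes were named after their values were seen. Cells, lists and comparisons were chosen with earlier results of these data known. Alternatives changed the limits of the rule and filter, the scaling, the CPM floor, the weight of cells and their depth.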

Additional observations from a re-analysis of the deposited data

Results flagged for a closer look

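In the contrast of Col10a1-high over Col10a1-low surface cells, 2 of the named genes at 20 CPM or more in either set of both libraries went opposite ways in the 2 libraries by 1.5-fold or more, with neither interval holding 1. Ibsp, bone sialoprotein, had a ratio of 0.501 in trace and 2.85 in pulse. It was detected in 10.7% of Col10a1-high trace cells, where 10 cells held 72.6% of its UMIs, and in 32.1% of Col10a1-high pulse cells. S100a8, a calcium-binding protein of neutrophils, had a ratio of 0.635 in trace and 9.31 in pulse, but 1 cell held 98.5% of its UMIs in the Col10a1-high pulse cells. The differences between the libraries were not tested.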

How the results depend on the processing

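No paired analysis was possible because each group was 1 library. Col10a1-high cells were 12.99% of filtered trace cells with Col10a1 at 2 or more UMIs, 8.89% at 8 or more, 13.5% of cells with 1000 or more genes and 10.3% with a heat shock sum under 3. Over Col10a1-low cells, a 50 CPM floor gave 46 genes higher and 35 lower, and a 10 CPM floor 125 lower. Over deeper-zone cells, allowing 1 deeper-cartilage gene gave 273 higher and 354 lower, a 50 CPM floor 351 and 310, and a 10 CPM floor 878 lower. The first of these also widened the deeper-zone set, which then took in cells with 2 of the 6 deeper-cartilage genes. Over the other cells, lower genes numbered 1011 at 10 CPM, 267 at 50 CPM and 366 without the highest 1% of cells per gene, an alternative chosen after seeing the data. For trace over pulse, a median ratio set to 1 gave 313 higher and 332 lower, a 50 CPM floor 124 and 294, and a 10 CPM floor 839 lower. Ratios turned for Hbb-bt over Col10a1-low cells (1.28 without the highest 1%), Msmp over deeper-zone cells (0.691 with a heat shock sum under 3) and Procr over deeper-zone cells (5.33 at 3000 to 8000 UMIs and 8.72 without the highest 1%). The causes were not tested. Of 233 named ratios, 122 were past 2-fold, and 113 to 122 of these stayed so under each of the 16 alternatives. The 10 CPM and 50 CPM floors do not change a ratio, so their 122 was fixed in advance. The depth per cell limits what a missing UMI of a low gene shows.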
